A study of Homo sapiens with 6 samples.

Results

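The TAL1-LMO2 transcription complex was examined as 8 genes, TAL1, LYL1, LMO1, LMO2, LDB1, GATA3, RUNX1 and MYB, each taken by its symbol from the 60640 gene identifiers of the deposited tables. They were measured by polyA RNA-seq in the cultured cell line MOLT-4, which derives from an acute lymphoblastic leukemia of human T cells (T-ALL). The design has 2 groups of 3 libraries: wild type, which is the CRISPR knockout control, and IK-KO, edited by CRISPR-Cas at IKZF1, which encodes the lymphoid regulator IKAROS. Control and edited cells were bought, the labels name no treatment for either group and no clone, so the loss of IKAROS cannot be told apart from anything else that sets the lines apart. Nothing states that the libraries are separate cultures, and the methods mention merged technical replicates without naming libraries, so p-values measure only the spread between these libraries, which may be technical.

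TAL1 is a basic helix-loop-helix (bHLH) factor that binds DNA at E-boxes together with an E protein such as TCF3 or TCF12. The LIM-only proteins LMO1 and LMO2 bind no DNA themselves and bridge the bHLH pair to LDB1, a dimerizing adaptor, in a complex that can also hold GATA factors. In normal blood formation TAL1 and LMO2 act in stem and erythroid cells and are shut off in T cells, whereas in many T-ALL they are active again, and there TAL1, GATA3, RUNX1 and MYB occupy each other's enhancers and many shared targets.

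Abundance differed widely among the genes. The values are FPKM (fragments per kilobase of transcript, per library depth in mapped fragments), which are scaled for length and can be compared between genes. By mean FPKM over the 6 libraries the order was MYB (237), RUNX1 (109), GATA3 (64.5), LDB1 (49.0), TAL1 (17.7) and LMO2 (3.93), with LYL1 and LMO1 at or near 0. MYB was expressed above 97.2% of the 12652 tested genes, TAL1 above 61.6% and LMO2 above 24.3%. Ranges of adjacent genes in this order did not overlap within either group, except for those of LYL1 and LMO1 in wild type.

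The start regions of TAL1, of its barely detected paralog LYL1 and of LDB1 are shown because TAL1 and LDB1 changed in opposite directions. RefSeq (GRCh38.p14) gave 13 windows of 300 bases, from 250 before to 50 after a start, for 7 of the 8 genes (2 for TAL1, 6 for GATA3, 1 each for LYL1, LMO1, LDB1, RUNX1 and MYB), with no entry for LMO2. Capitals mark the E-box CANNTG, the GATA motif AGATAA and the RUNX motif TGTGGT, searched on both strands. All 4 windows lie on the minus strand and read 5′ to 3′. In order they are chr1:47232286-47232585, chr1:47231666-47231965, chr19:13102809-13103108 and chr10:102114953-102115252.

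TAL1 upstream start: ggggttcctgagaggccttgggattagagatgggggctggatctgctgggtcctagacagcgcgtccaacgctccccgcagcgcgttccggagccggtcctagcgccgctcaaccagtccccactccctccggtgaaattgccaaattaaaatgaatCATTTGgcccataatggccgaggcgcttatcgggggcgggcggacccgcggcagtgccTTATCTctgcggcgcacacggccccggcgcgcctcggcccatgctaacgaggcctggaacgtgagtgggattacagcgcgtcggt

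TAL1 downstream start: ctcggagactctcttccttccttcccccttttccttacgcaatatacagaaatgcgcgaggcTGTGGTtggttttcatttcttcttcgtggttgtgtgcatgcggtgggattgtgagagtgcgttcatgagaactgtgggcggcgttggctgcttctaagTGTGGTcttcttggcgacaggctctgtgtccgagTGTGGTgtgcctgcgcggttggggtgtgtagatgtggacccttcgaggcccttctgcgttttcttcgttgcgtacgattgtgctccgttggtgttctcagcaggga

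LYL1: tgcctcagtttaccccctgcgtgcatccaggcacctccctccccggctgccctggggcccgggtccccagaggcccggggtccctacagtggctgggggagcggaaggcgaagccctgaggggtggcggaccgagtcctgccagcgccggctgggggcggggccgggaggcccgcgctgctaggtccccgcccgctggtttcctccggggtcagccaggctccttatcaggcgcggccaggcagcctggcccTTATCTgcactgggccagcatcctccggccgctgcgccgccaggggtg

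LDB1: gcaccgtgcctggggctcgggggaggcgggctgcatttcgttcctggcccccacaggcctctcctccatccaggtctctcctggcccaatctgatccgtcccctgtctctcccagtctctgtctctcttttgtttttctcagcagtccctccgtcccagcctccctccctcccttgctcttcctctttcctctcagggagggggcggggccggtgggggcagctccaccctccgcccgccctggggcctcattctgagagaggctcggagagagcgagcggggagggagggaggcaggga

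The upstream TAL1 window held a GATA motif 35 bases before the start and an E-box at −93, and the downstream window held 3 RUNX motifs, at −188, −90 and −56. LYL1 had a GATA motif just after its start, and LDB1 had none of the 3 motifs in its only window. That window lies inside the gene, whose bounds reach 102120368 on the minus strand, so the outer end of LDB1 was not searched. The windows of LYL1 and RUNX1 also lie wholly inside the bounds of their genes. The upstream TAL1 window lies outside the bounds given below for TAL1. Of the 13 windows, 3 held CANNTG, 2 held AGATAA, 2 held TGTGGT and 2, of LMO1 and GATA3, held TGGGAA, a motif of IKAROS. Among all 35116 RefSeq windows the shares were 68.7%, 10.3%, 13.1% and 24%. These matches describe letters in a window and show no binding.

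IKZF1 was examined first because it was the edited gene. It measured 134, 124 and 105 FPKM in wild type, against 207, 260 and 207 FPKM in the IK-KO-labelled libraries, a log2 change of 0.89 (SE 0.12, adjusted p 0.00295 by limma). IKZF1 RNA was higher in the group labelled as edited, so the RNA level does not check the label, and this group is named by its label below. The paper states that loss of IKAROS in its edited MOLT-4 cells was checked by PCR and western blot. The labels do not say which clone was sequenced. All 10 T-lineage markers reached a mean of 1 FPKM over the 6 libraries (CD3D, CD3E, LCK and others). CD4 did so only through wild type, at 2.57 to 2.91 FPKM against 0.254 to 0.479 FPKM in the IK-KO-labelled libraries. The summed FPKM of 5 B-lineage markers stayed between 0.372 and 2.24 and that of 5 myeloid markers between 0.148 and 0.592. Of 12 erythroid genes, 6 (HBB, HBG1, ALAS2, AHSP, RHAG and GYPB) were listed at 0 in all 6 libraries, and EPOR made up most of the sum of 2.76 to 4.35 FPKM.

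Of the 8 genes, 6 passed the filter of a mean of at least 1 FPKM. TAL1 and LMO2 were lower in the IK-KO-labelled libraries, LDB1 and GATA3 were higher, and neither RUNX1 nor MYB passed the test. The 4 called genes, at an adjusted p under 0.05 in limma, stand against 19.9% called among all tested genes (10.1% higher and 9.75% lower). In 5 of the 6 the groups lay apart without overlap, against 39.0% of all tested genes. In bulk RNA, less RNA per cell and fewer cells expressing a gene cannot be told apart.

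**Figure D1:**
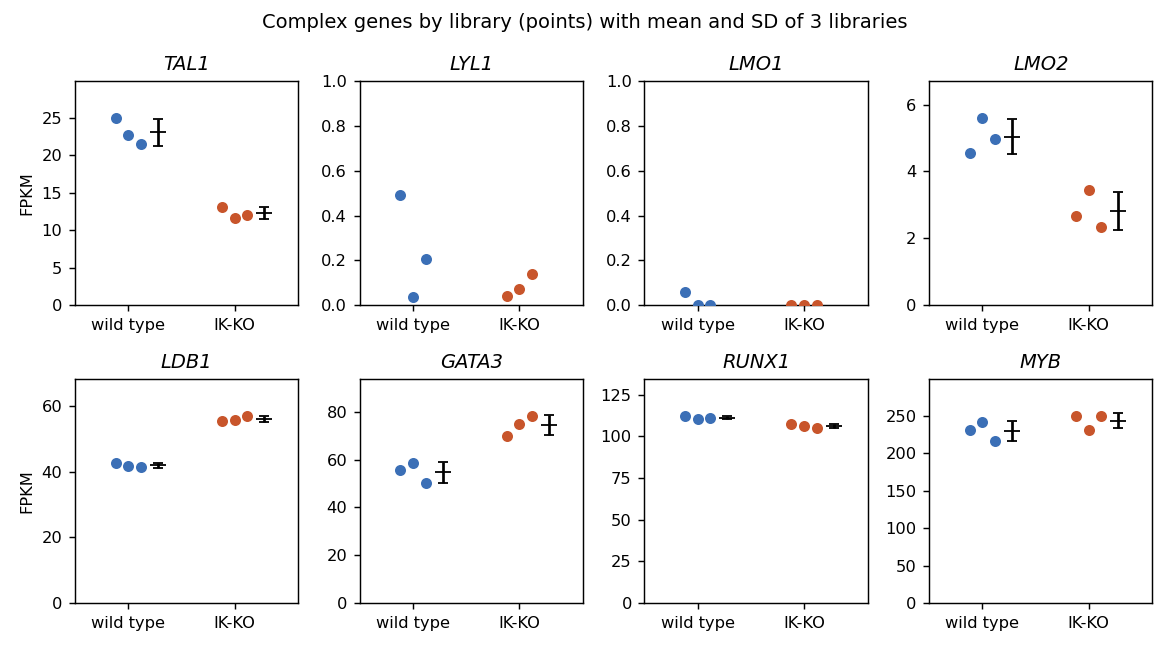
FPKM of the 8 complex genes in each library (points, 3 wild type in blue and 3 labelled IK-KO in orange); black marks give the mean and SD and are left out for LYL1 and LMO1. TAL1 and LMO2 are lower and LDB1 and GATA3 higher in every IK-KO-labelled library, the RUNX1 points lie close together, and those of MYB overlap.

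TAL1 (ENSG00000162367.11, chromosome 1, 47216290 to 47232220) measured 25.0, 22.8 and 21.5 FPKM in wild type. It was at 13.2, 11.6 and 12.1 FPKM in the IK-KO-labelled libraries. Every IK-KO-labelled library thus lay well below the lowest wild type library, and the confidence bounds of the tables did not meet either (at most 14.3 FPKM against at least 20.1). The mean fell from 23.1 ± 1.75 to 12.3 ± 0.817 FPKM (SD, n = 3), a ratio of 0.532. On the log2(FPKM + 1) scale the change was −0.86 (SE 0.08, adjusted p 0.000736 by limma), a larger absolute change than in 93.9% of tested genes.

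LYL1 (ENSG00000104903.5, chromosome 19, 13099033 to 13103161), the bHLH paralog that can take the place of TAL1 in other T-ALL, was at the edge of detection. It measured 0.492, 0.0361 and 0.206 FPKM in wild type, against 0.0422, 0.0738 and 0.139 FPKM in the IK-KO-labelled libraries, with a lower confidence bound of 0 in all but wild type replicate 1. The groups overlapped, and LYL1 lay below the filter. In the fit with genes of all levels kept, its log2 change was −0.18 (limma adjusted p 0.581). TAL2, another bHLH paralog of TAL1, was at most 0.134 FPKM in any library.

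LMO2 (ENSG00000135363.12, chromosome 11, 33858576 to 33892076) is the LIM-only protein whose activation is best known from T-ALL. It measured 4.55, 5.59 and 4.99 FPKM in wild type, against 2.66, 3.45 and 2.33 FPKM in the IK-KO-labelled libraries. The highest IK-KO-labelled library lay below the lowest wild type library, although the confidence bounds of single libraries met, since each spans between 18.7% and 31.0% of the value on either side. The mean fell from 5.04 ± 0.521 to 2.81 ± 0.577 FPKM (SD, n = 3), which was −0.67 on the log2(FPKM + 1) scale (SE 0.14, adjusted p 0.0182 by limma). The call was lost in several alternatives. Without wild type replicate 2 or 3, or without IK-KO replicate 1 or 3, the limma adjusted p was 0.0671, 0.0557, 0.0588 and 0.0554, and it was 0.0616 with genes of all levels kept.

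LMO1 (ENSG00000166407.14, chromosome 11, 8224309 to 8268716), the other LIM-only protein activated in T-ALL, was listed at 0.0606 FPKM in wild type replicate 1 and at 0 in the other 5 libraries. It too lay below the filter and was not called with genes of all levels kept (limma adjusted p 0.598). LMO3 was listed at 0 in all 6. LMO4, a LIM-only paralog that also binds LDB1, was the exception. It rose from 3.48, 3.96 and 3.36 FPKM to 7.84, 7.25 and 8.18 FPKM, a log2 change of 0.93 (SE 0.10, adjusted p 0.00120 by limma). LMO4 was below LMO2 in each wild type library and above it in each IK-KO-labelled library.

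LDB1 (ENSG00000198728.11, chromosome 10, 102106489 to 102120368), the adaptor that holds the complex together, measured 42.7, 41.7 and 41.4 FPKM in wild type, against 55.4, 55.8 and 57.0 FPKM in the IK-KO-labelled libraries. Both groups were tight and lay apart. The mean rose from 41.9 ± 0.683 to 56.1 ± 0.803 FPKM (SD, n = 3), 1.34-fold, with a log2 change of 0.41 (SE 0.05, adjusted p 0.00155 by limma). Its paralog LDB2 was listed at 0 in every library.

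GATA3 (ENSG00000107485.18, chromosome 10, 8045378 to 8075198), the zinc finger factor that T cells need from their earliest stages, rose as well. It measured 55.5, 58.5 and 50.01 FPKM in wild type, against 69.9, 75.0 and 78.2 FPKM in the IK-KO-labelled libraries, with no overlap. The log2 change was 0.44 (SE 0.07, adjusted p 0.00729 by limma), or 1.36-fold. GATA1, the erythroid partner of the complex, was listed at 0 in all 6 libraries. GATA2, its stem cell partner, measured 0.470, 0.208 and 0.216 FPKM in wild type, against 0 in all 3 IK-KO-labelled libraries. Its lower confidence bound was 0 in wild type replicates 2 and 3. GATA2 lay below the filter and was not called with genes of all levels kept (limma adjusted p 0.0688). GATA3-AS1 overlaps GATA3 and was at 0.199 to 0.788 FPKM in wild type and 0.898 to 1.5 FPKM in the other group. The strand setting of the counting is not stated, so reads of these overlapping genes cannot be told apart, but GATA3 was by far the more abundant.

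RUNX1 (ENSG00000159216.18, chromosome 21, 34787801 to 36004667) was nearly level. It measured 112, 111 and 111 FPKM in wild type, against 108, 106 and 105 FPKM in the IK-KO-labelled libraries. The groups did not overlap, but the log2 change of −0.07 (SE 0.04) did not pass the test (limma adjusted p 0.310). CBFB, the subunit that stabilizes RUNX proteins on DNA, was at 55.2 ± 2.57 and 50.3 ± 4.95 FPKM (SD, n = 3, limma adjusted p 0.284). RUNX2 rose from 1.41, 2.19 and 1.22 to 3.42, 3.21 and 3.97 FPKM, a log2 change of 0.81 (SE 0.17, adjusted p 0.0173 by limma), and lost this call in 5 of 15 alternatives, among them the fits without wild type replicate 1 (0.0585), IK-KO replicate 1 (0.0506) and IK-KO replicate 3 (0.0618). RUNX2 lies on chromosome 6, where 74.5% of 655 tested genes had a positive log2 change. With the change of its neighbours removed, its log2 change was 0.57, still called. RUNX3 measured 1.78, 1.55 and 1.69 FPKM in wild type and 0.798, 1.17 and 1.07 FPKM in the other group (limma adjusted p 0.108).

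MYB (ENSG00000118513.19, chromosome 6, 135181308 to 135219173), the factor of highest abundance here, measured 231, 242 and 216 FPKM in wild type, against 250, 232 and 250 FPKM in the IK-KO-labelled libraries. The groups overlapped, and the log2 change of 0.08 (SE 0.06, adjusted p 0.355 by limma) turned to −0.0026 with quantile normalization and to −0.0095 with the change of its neighbours removed. MYBL2, its cell cycle paralog, was at 168 ± 5.6 and 171 ± 5.45 FPKM (SD, n = 3, limma adjusted p 0.697), and MYBL1 at 3.36 ± 0.0930 and 4.05 ± 0.677 FPKM (SD, n = 3, limma adjusted p 0.317).

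Since LDB1 and GATA3 moved against TAL1 and LMO2, the proportions of the transcripts within each library were also described. TAL1 was 0.585, 0.546 and 0.520 of LDB1 in wild type and 0.238, 0.208 and 0.212 of it in the IK-KO-labelled libraries. LMO2 was 0.107, 0.134 and 0.121 of LDB1 in wild type and 0.0479, 0.0619 and 0.0409 in the others. TAL1 and LMO2 fell in near proportion, so that TAL1 was 4.62 ± 0.754 times LMO2 in wild type and 4.5 ± 0.998 times LMO2 in the IK-KO-labelled libraries (SD, n = 3). GATA3 and LDB1 kept a ratio of 1.30 ± 0.0975 and 1.33 ± 0.0582 (SD, n = 3), with overlapping groups. GATA3 per TAL1 went from 2.37 ± 0.178 to 6.08 ± 0.676 (SD, n = 3). RNA ratios need not match those of the proteins.

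**Figure D2:**
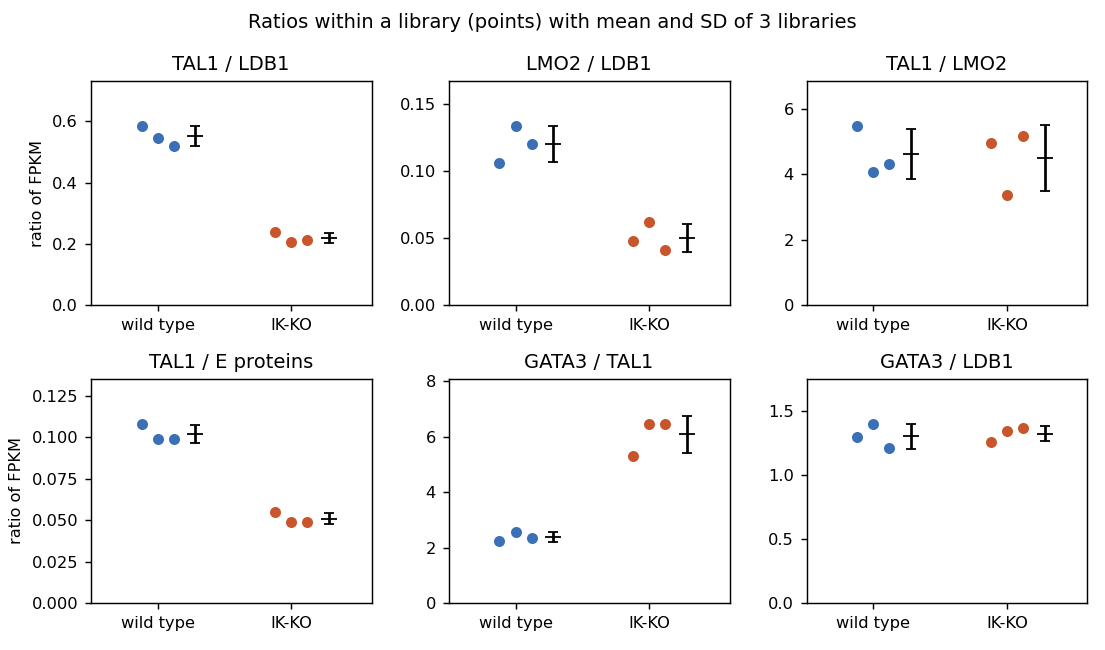
Ratios of FPKM between complex genes within each library (points, 3 wild type in blue and 3 labelled IK-KO in orange), with mean and SD in black; E proteins are the sum of TCF3, TCF4 and TCF12. TAL1 and LMO2 are lower relative to LDB1 in every IK-KO-labelled library, whereas the TAL1 to LMO2 and GATA3 to LDB1 ratios overlap between the groups.

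The E proteins, which pair with TAL1, showed no called difference. TCF3 was at 148 ± 4.12 and 153 ± 2.70 FPKM (SD, n = 3, limma adjusted p 0.522) and TCF12 at 69.8 ± 1.81 and 78.9 ± 6.04 FPKM (SD, n = 3, limma adjusted p 0.114). TCF4 varied from 4.02 to 12.1 FPKM across libraries and was not called (limma adjusted p 0.568). Summed, the E proteins were at 217 to 230 FPKM in wild type and at 236 to 247 FPKM in the IK-KO-labelled libraries, so TAL1 went from 0.102 ± 0.00537 to 0.0509 ± 0.00336 of their RNA (SD, n = 3). The ID proteins bind E proteins without binding DNA and so compete with TAL1 for them. ID1 rose from 35.6, 40.3 and 28.3 to 119, 118 and 110 FPKM, and ID3 from 116, 122 and 115 to 168, 171 and 157 FPKM, log2 changes of 1.72 and 0.48 (limma adjusted p 0.000190 and 0.00107). ID2 was not called and ID4 was listed at 0 in all 6 libraries.

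In a list of 31 partners and paralogs of the complex, 24 genes were tested and 8 called, 7 higher and 1 lower. The median log2 change of the tested genes was 0.15, against 0.02 over all tested genes, and 33.3% were called, against the 19.9% of all genes. Besides ID1, ID3, LMO4 and RUNX2, the rises were in FLI1 (log2 change 0.36), SSBP3 (0.29) and KDM1A (0.25), named after their values were seen. SSBP3 binds LDB1 and shields it from degradation, and KDM1A is a histone demethylase. Leaving out single libraries ended the call of FLI1 (without wild type replicates 2 and 3, adjusted p 0.0626 and 0.0527), of KDM1A (without IK-KO replicate 1, 0.0535) and of SSBP3 (without any library but IK-KO replicate 2, 0.0558 to 0.103), the latter in 10 of 17 alternatives in all. The single fall was ERG, an ETS factor that works with TAL1 and LMO2 in stem cells. ERG went from 15.1, 17.0 and 15.2 to 4.24, 3.96 and 4.49 FPKM, a log2 change of −1.68 (SE 0.09, adjusted p 7.56e-05 by limma), while its close relative FLI1 rose from 43.8 ± 2.50 to 56.4 ± 4.89 FPKM (SD, n = 3).

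Genes known as targets of TAL1, LMO2 or MYB were described next, from a list of 12 written from general knowledge. Of 10 tested genes, 5 were called, 4 lower (described here) and 1 higher, with a median log2 change of −0.26. Over all tested genes 19.9% were called, 10.1% higher and 9.75% lower, and the median log2 change was 0.02. The list is short and was chosen with earlier results of these data known. Whether its genes differed from all tested genes as a set was not tested. ALDH1A2, a retinoic acid synthesis enzyme that TAL1 and LMO proteins switch on in T-ALL, measured 219, 242 and 207 FPKM in wild type, against 98.5, 106 and 103 FPKM in the IK-KO-labelled libraries, a log2 change of −1.11 (SE 0.07, adjusted p 0.000113 by limma). HHEX, a homeobox target of LMO2, fell from 4.98, 4.74 and 4.88 to 0.498, 0.276 and 0.945 FPKM, a log2 change of −1.92 (SE 0.18, adjusted p 0.000647 by limma) that was −3.01 with a pseudocount of 0.1. HHEX passed the filter only through wild type, since every IK-KO-labelled library lay below 1 FPKM. TRIB2, a pseudokinase, went from 20.7, 18.3 and 15.1 to 7.85, 11.7 and 11.9 FPKM (log2 change −0.74, limma adjusted p 0.0249), and was not called without wild type replicate 1 or 2 (adjusted p 0.0882 and 0.0806). ARID5B, a chromatin regulator downstream of TAL1, went from 9.28, 8.87 and 8.61 to 6.23, 5.90 and 5.80 FPKM (log2 change −0.51, limma adjusted p 0.00604).

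The other 5 tested targets were not called: MYC was at 183 ± 10.7 and 173 ± 2.63 FPKM, CDK6 at 212 ± 17.3 and 208 ± 15.8 FPKM, and BCL2 at 4.23 ± 0.366 and 5.41 ± 0.223 FPKM (SD, n = 3, limma adjusted p 0.317, 0.846 and 0.0872). GFI1 and NFE2 were likewise not called. KIT and MYCN, below the filter, were listed at 0.313 to 0.580 and 0.336 to 0.454 FPKM in wild type and at 0.133 to 0.163 and 0.0862 to 0.246 FPKM in the IK-KO-labelled libraries.

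**Figure D3:**
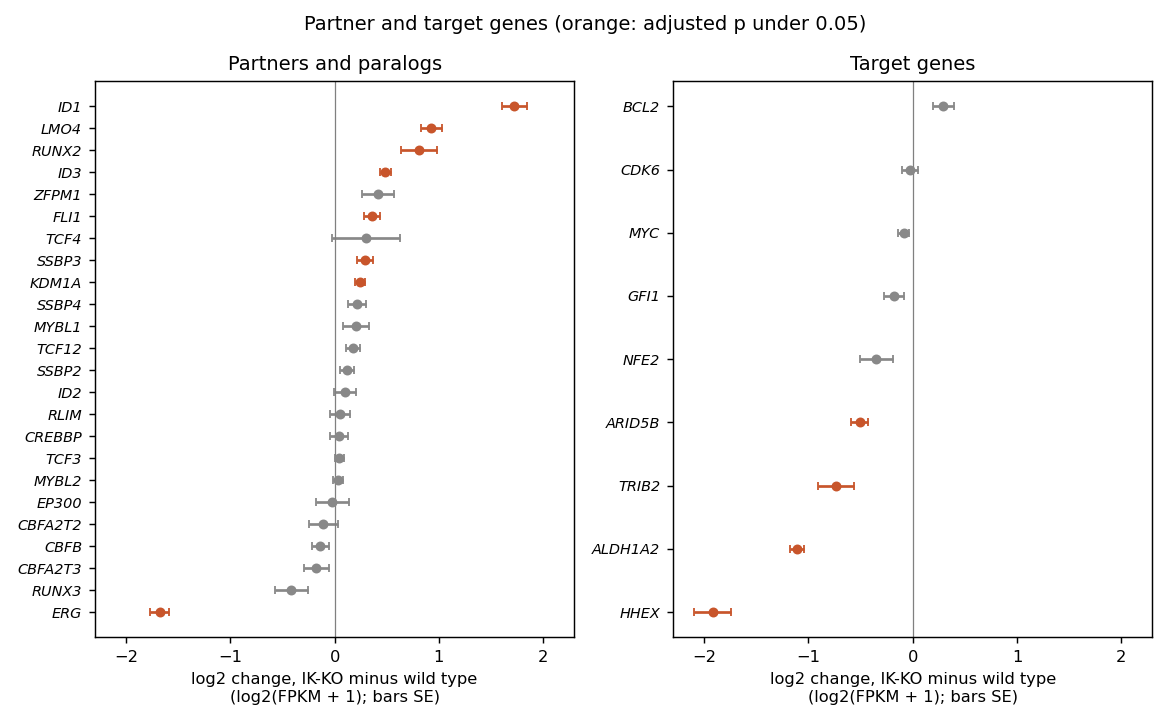
Log2 change (IK-KO minus wild type, on log2(FPKM + 1)) of the 24 tested partners and paralogs and 9 of the 10 tested target genes, with bars of 1 SE; genes called by limma are orange. Of the genes shown, ID1 and LMO4 have the largest rises and HHEX, ERG and ALDH1A2 the largest falls.

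The stem and progenitor genes were examined because TAL1, LMO2 and ERG are used by stem cells. CD34 measured 11.6, 10.1 and 8.08 FPKM in wild type, against 7.95, 7.82 and 7.32 FPKM in the IK-KO-labelled libraries, and did not pass the test. MEIS1 was the only other gene of the 8 to pass the filter and was not called either (limma adjusted p 0.132 for CD34 and 0.456 for MEIS1). HOXA9 was listed at 0 in all 6 libraries and SPI1 was at most 0.0574 FPKM. The summed FPKM of the 8 genes ranged from 10.5 to 13.4 in wild type and from 9.05 to 11.2 in the other group. These ranges overlapped, and whether stem and progenitor expression has a part in the fall of TAL1 and LMO2 was not tested. T-lineage markers moved in both directions, with 8 of 10 called against the 19.9% of all tested genes. CD1A (log2 change 0.86), CD3G (0.65), CD3D (0.44) and ZAP70 (0.30) were higher, and CD7 (−1.72), CD4 (−1.45), CD8A (−1.35) and CD5 (−1.06) lower. These markers were named after their values were seen. Of the called markers, CD4 passed the filter only through wild type.

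Neighbouring genes were set beside each complex gene, since whole segments of the genome can shift together between 2 lines. None of the 20 tested genes around TAL1 had a change as low as TAL1, and they ranged from −0.32 to 0.36. STIL, which lies 17.9 kb from TAL1 and is fused to it by a recurrent deletion in other T-ALL, was at 17.2 ± 2.29 and 19.4 ± 1.63 FPKM (SD, n = 3, limma adjusted p 0.342). CMPK1, EFCAB14 and ATPAF1, the next tested genes, were not called either. With the median change of the neighbours removed, TAL1 was at −0.94, LMO2 at −0.64, LDB1 at 0.48 and GATA3 at 0.52, all still called.

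GATA3 was above all 20 of its neighbours, LDB1 above 19 of 20, and LMO2 below 19 of 20. Next to GATA3, TAF3 and ATP5F1C were not called and CELF2, the nearest tested gene on the other side, was lower (log2 change −0.46, limma adjusted p 0.00684), while USP6NL beyond it was not called. Beside LDB1, NOLC1 was lower (−0.29, limma adjusted p 0.0242) and PPRC1, HPS6 and ARMH3 were not called. Around LMO2, CD59 was lower (−0.41, limma adjusted p 0.0204), and FBXO3, CAPRIN1 and NAT10 were not called. MYB lies on chromosome 6, where 74.5% of 655 tested genes had a positive log2 change, called or not. Its neighbour HBS1L was higher (0.41, limma adjusted p 0.00758) and AHI1 lower (−0.31, limma adjusted p 0.0412), while SGK1 was not called. MYB-AS1, which lies within MYB and whose reads cannot be told apart from it without strand, was at 1.85 ± 0.219 and 1.98 ± 1.61 FPKM (SD, n = 3, limma adjusted p 0.908). Of the genes around RUNX1, RCAN1 was lower (−0.45, limma adjusted p 0.00637) and SMIM11A, SETD4 and the pseudogene RPL23AP3 were not called.

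**Figure D4:**
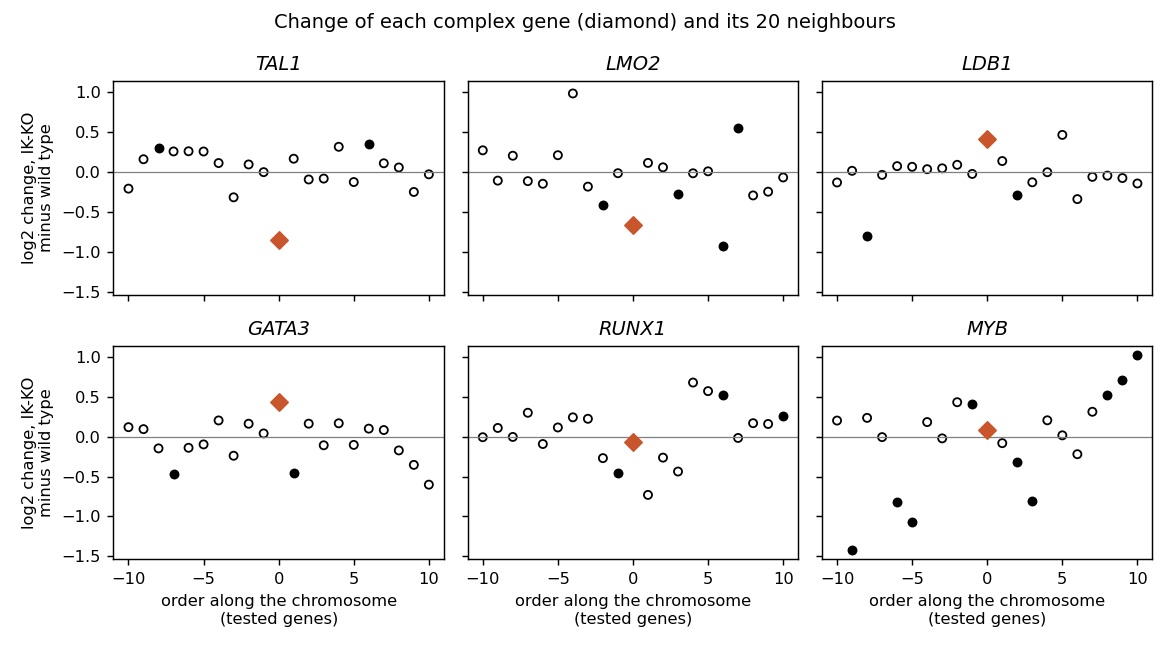
Log2 change (IK-KO minus wild type) of 6 complex genes (orange diamonds) and of the 10 tested genes on each side, in order along the chromosome; filled circles are called by limma and open circles are not. TAL1 lies below and GATA3 above all of their neighbours, whereas MYB and RUNX1 lie within the range of theirs.

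The tested genes whose log2(FPKM + 1) followed each complex gene most closely over the 6 libraries were listed by Pearson r, as a description. The difference between the groups weighs most in it, except for MYB, whose groups overlapped. CTNNAL1, MX2 and RCBTB2 were closest to TAL1 (r of 0.999 each), and 65 genes reached 0.99. PNKD, GOLGA6L5P and CBX6 were closest to LMO2 (r from 0.996 to 0.997). GOLGA6L5P is a pseudogene whose fragments may be shared with relatives. MARCKSL1, DPYSL2 and ITM2B were closest to LDB1 (r of at least 0.999), and UBB, PBK and TRBC2 to GATA3 (r from 0.996 to 0.999). For RUNX1 they were SLC9A8, PI4KA and ERCC6L2 (r from 0.997 to 0.998), and for MYB, YME1L1, AC040160.1 and H2AZ2 (r from 0.986 to 0.994).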

How the data were processed

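PolyA RNA of MOLT-4 cells was sequenced in 3 wild type and 3 IK-KO libraries. The authors deposited 1 gene table of FPKM per library, scaled for transcript length and mapped fragments, with confidence bounds and an estimation status, in the Cufflinks layout. The submitters' processing notes name STAR 2.6.1c, Cufflinks 2.2.1, HOMER 4.10 and hg38. The annotation and strand setting are not given in the sources used here. Tables have 60752 rows. For 5 of the 8 genes, identifier version and position equal those of GENCODE release 44. Coordinates are GRCh38, counted from 1.

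Rows of 1 identifier were summed (110 identifiers on several rows), and 29 genes with a failed estimate were left out. Counts were not given. From the bounds of genes with a single transcript, an FPKM of 1 in 1 kilobase rests on between 16.3 and 19.7 fragments per library, so values below 0.1 FPKM rest on few fragments.

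For each of 12652 genes whose mean reached 1 FPKM, log2(FPKM + 1) was compared between the groups in limma 3.58.1 under R 4.3.3 (eBayes with trend, two-sided), and p-values were adjusted over all of them by Benjamini and Hochberg; a gene is called at an adjusted p under 0.05. A change on this scale understates that of low genes. The fit was tested on data simulated with independent normal noise, which cannot show whether the libraries are technical replicates. Members, lists and tests were chosen with earlier results of these data known. Named are all 8 genes and IKZF1, their listed paralogs and E proteins, the called genes of the partner list and of the target list with the largest changes (at most 4 up and 4 down, groups not overlapping), the 2 nearest tested genes on each side and the 3 genes of highest r; others were named after their values were seen. The values of 1 called target gene, the one that was higher, are not reported here; it is kept in the counts. Alternatives varied pseudocount, filter, scaling, trend, neighbours, chromosomes, failed estimates, libraries and replicate block.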

Additional observations from a re-analysis of the deposited data

How the results depend on the processing

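Under all 17 alternatives TAL1 (log2 change −0.94 to −0.80), LDB1 (0.38 to 0.48), GATA3 (0.38 to 0.52) and IKZF1 (0.78 to 0.97) kept their direction and call, and RUNX1 (−0.12 to −0.06) was never called. LMO2 kept its direction, at −0.67 without the filter on low values, where it was not called, and from −0.79 to −0.58 in the fits without 1 library. MYB reversed to −0.0026 with quantile normalization and to −0.0095 with its neighbours' change removed, and was not called in any alternative. With a minimum mean of 5 FPKM LMO2 was not tested, and MYB was not tested without chromosomes 6 and 9. LYL1, below the filter, moved from −0.18 to −0.69 with a pseudocount of 0.1. Called complex genes numbered 3 or 4, and called partners and targets 9 to 15 against 13. Same-numbered libraries deviated together at r of only 0.0669, 0.0248 and 0.00546. Differently numbered libraries were not set beside these values, so whether the numbers pair libraries was not settled. With the replicate block 4 complex genes and 9 partners and targets were called, FLI1, RUNX2, SSBP3 and TRIB2 no longer being called, and 1805 genes in all against 2515. The depth limits LMO2 most among the tested complex genes, and LYL1 and LMO1 were tested only without the filter (limma adjusted p 0.581 and 0.598).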
